A study of Saccharomyces cerevisiae with 14 samples.

Results

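The mRNAs that encode the mitochondrial protein import machinery of budding yeast were followed in immunoprecipitates of Ccr4, Dhh1 and Puf5. They were taken by locus name from a list of 35 genes of the TOM, SAM, TIM22 and TIM23 complexes, the PAM motor, the small TIM chaperones, the MIA pathway and the mitochondrial processing peptidase. Of these, 30 had counts among the 5945 RNAs and 4792 mRNAs of the tables, and 29 passed the filter on low counts. *ERV1* (YGR029W), the sulfhydryl oxidase of the MIA pathway, had 0 to 6 counts in each library and was not tested. *TOM71*, *TOM5*, *TIM8*, *TIM9* and *TIM10* were not analysed here.

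Nearly all mitochondrial proteins are made on cytosolic ribosomes and cross the outer membrane through the TOM complex. From there SAM builds β-barrel proteins into the outer membrane, TIM22 inserts carriers into the inner membrane, and TIM23 with the Hsp70-driven PAM motor pulls proteins with a presequence into the matrix, where the processing peptidase removes that presequence. The factors studied act on mRNA in the cytoplasm: Ccr4 is the main deadenylase, Dhh1 a DEAD-box helicase that promotes decapping and represses translation, and Puf5 a PUF protein that binds motifs in 3′ UTRs and recruits the Ccr4-Not complex. A relative of Puf5, Puf3, is the PUF protein best known for binding mRNAs of mitochondrial proteins. It was not among the proteins precipitated.

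RNA was recovered with a myc antibody from formaldehyde-fixed BY4741 cells that carried a myc-tagged Ccr4, Dhh1 or Puf5 (Ccr4 IP, Dhh1 IP and Puf5 IP, given below as counts with Ccr4, with Dhh1 or with Puf5) and from untagged BY4741 cells (UT IP, the mock), with 3 biological replicates each. There were also 2 libraries of untagged cells without precipitation (UT input). All cultures grew at 30° in rich glucose medium without stress, and all libraries share the BY4741 background. *LEU2* had 0 to 2 counts, *MET17* 0 to 3 and *URA3* 0 to 18, while *STE2*, which marks the MATa mating type, had 259 to 679. Inputs of the tagged strains were not analysed here, so more recovery of an mRNA and more of that mRNA in the tagged strain cannot be told apart.

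Between 20376517 and 23943342 reads were counted per library, of which rRNA took 95.1% to 97.4%. The import mRNAs together had 2712 to 6419 counts per library, or 0.547% to 0.689% of the counts on mRNAs. The median count of an import mRNA ran from 29 to 46.5 over the UT IP libraries and from 83.5 to 94 over those of Ccr4, so single mRNAs were measured with limited precision.

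Import mRNAs were enriched in each of the IPs, and with libraries scaled to all counted reads more of them were called with Ccr4 than with Dhh1 or Puf5, as was so for RNAs as a whole. This order depends on the scaling and was not tested for the group. Enrichment over the mock is given as a log2 ratio, with library sizes set to all counted reads, and an mRNA was called enriched when this log2 was over 1 and its false discovery rate (FDR, Benjamini-Hochberg) under 1%. With Ccr4, 18 of 29 import mRNAs were enriched, against 57.8% of all RNAs tested. With Dhh1 the count was 11, against a background of 37.4%, and with Puf5 it was 7, against 17.6%. The median log2 of the import mRNAs was 1.26, 0.94 and 0.79 for Ccr4, Dhh1 and Puf5, where the median of all mRNAs tested was 1.24, 0.94 and 0.61. No import mRNA passed an FDR of 1% below the UT IP. On this scale few mRNAs lay below it at all: 4467, 4577 and 4226 of 4642 mRNAs tested were above 0 with Ccr4, Dhh1 and Puf5. The factors share the 3 UT IP libraries, so their values are not independent of each other.

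**Figure D1:**
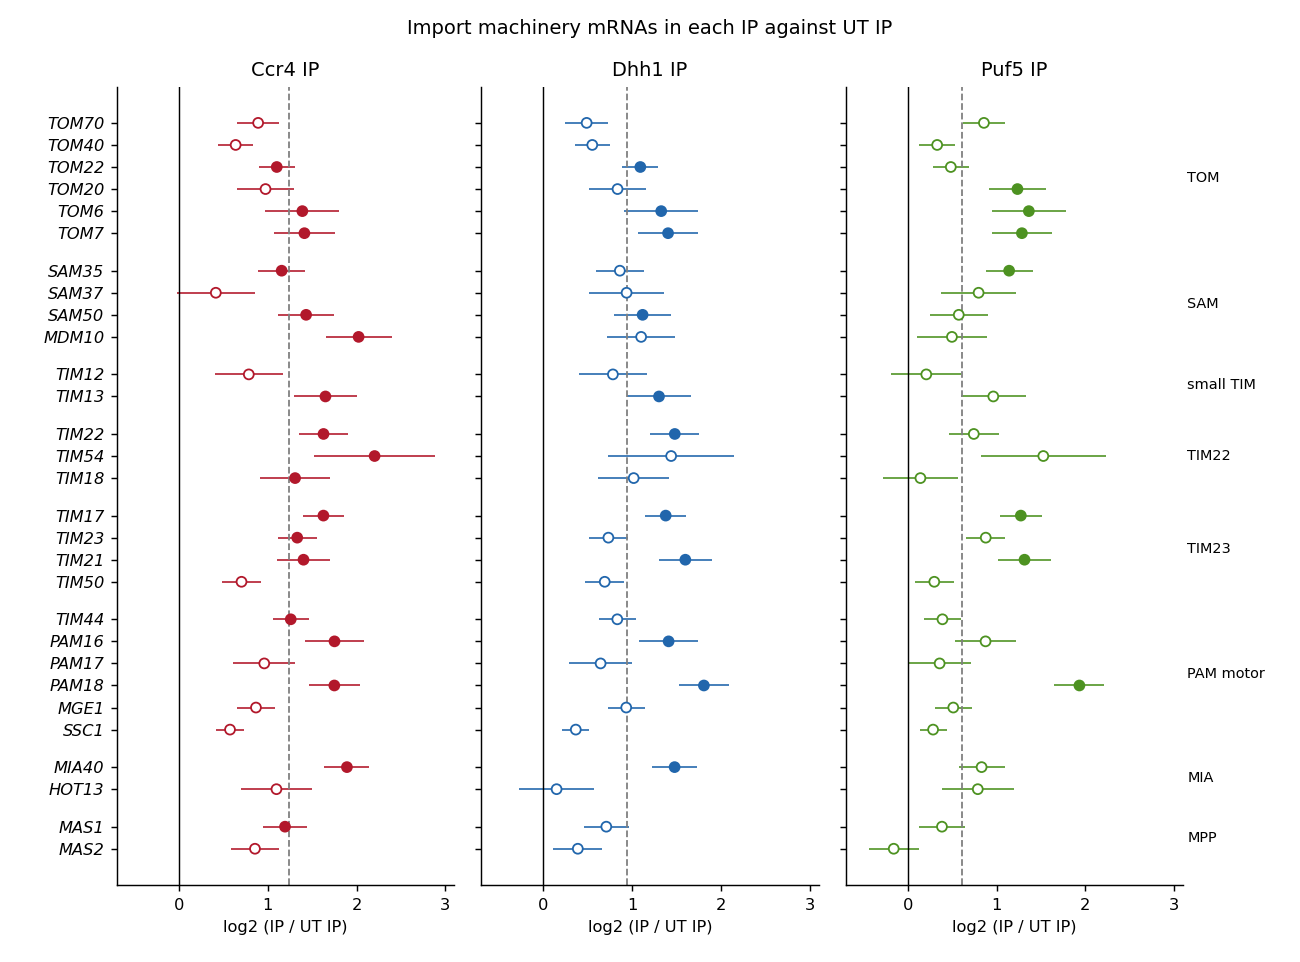
Log2 enrichment over the UT IP (x axis) of 29 import mRNAs in the Ccr4, Dhh1 and Puf5 IPs, grouped by complex (MPP, mitochondrial processing peptidase). Points are estimates from 3 libraries against 3 with bars of 1 standard error, filled where the mRNA was called enriched (18, 11 and 7), and the dashed line is the median of all mRNAs (1.24, 0.94 and 0.61), around which the import mRNAs scatter.

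With Ccr4, 27 of 29 import mRNAs had their lowest IP library above the highest mock library in counts per 1e+06 counts (CPM), against 77.9% of all RNAs. For Dhh1 this held for 25, against 74.5%, and for Puf5 for 18, against 49.1%. The call of enrichment rests on how libraries are scaled, since mRNAs as a whole took 2.73% to 4.07% of the counts in the tagged strains' IPs and 2.17% to 2.18% in the UT IP, where rRNA took 97.3% to 97.4%. With TMM factors, which set the bulk of RNAs near 0, the median of all mRNAs moved to 0.13, 0.04 and 0.03 and that of the import mRNAs to 0.13, 0.08 and 0.23. With TMM the calls numbered 0 for Ccr4, 0 for Dhh1 and 1 for Puf5, with 17, 16 and 17 of 29 import mRNAs above 0. The shares of all RNAs called or above 0 with TMM were not computed, so these counts have no background to be read against. The only call left was *PAM18* in the Puf5 IP. Below, log2 values are on the scale of all counted reads unless TMM is named, and can be read against the medians of all mRNAs above.

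The sets of enriched mRNAs were nested except for Puf5. The share of all RNAs that overlap in this way was not computed, and 57.8% of all RNAs were enriched with Ccr4. The authors reported that, across the transcriptome, Ccr4 also bound most targets of Dhh1 or Puf5, so nesting is not particular to the import mRNAs. All 11 enriched with Dhh1 were also enriched with Ccr4. Of the 7 enriched with Puf5, 6 were enriched with Ccr4, and the exception was *TOM20*, at a log2 of 0.97 in the Ccr4 IP. Enriched with all 3 factors were *TOM6* and *TOM7*, small subunits of the TOM complex, *TIM17* and *TIM21* of the TIM23 complex, and *PAM18* of the import motor. Enriched with none were 10 mRNAs, among them *TOM40* and *TOM70*, the import channel and a receptor of the outer membrane, and *SSC1*, *MGE1* and *PAM17* of the motor. With each of 12 libraries left out in turn, 13 of the 18 Ccr4 calls, 6 of the 11 Dhh1 calls and 2 of the 7 Puf5 calls, *PAM18* and *TIM17*, were made every time. The share of calls over all RNAs that were kept in this way was not computed.

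In the TOM complex the log2 values of *TOM6* and *TOM7* were higher than those of *TOM40* and *TOM70* in each IP. Differences between mRNAs were not tested, and *TOM20* was also called with Puf5 and *TOM22* with Ccr4 and Dhh1. *TOM6* (YOR045W) had 115, 129 and 73 counts with Ccr4, 174, 43 and 83 with Dhh1, 150, 48 and 123 with Puf5 and 72, 29 and 23 in the mock UT IP. Its lowest Dhh1 and Puf5 libraries lay within the range of the UT IP libraries, and its log2 of 1.36 ± 0.42 (SE) for Puf5 only just passed (FDR = 0.0099). Without the third UT IP library the Puf5 calls fell from 7 to 2, with *TOM6*, *TOM7*, *TOM20*, *TIM21* and *SAM35* lost. *TOM70* (YNL121C) had 519, 384 and 277 counts with Ccr4, 292, 312 and 266 with Dhh1, 325, 239 and 623 with Puf5 and 229, 202 and 221 in the mock UT IP. No IP library was as low as a mock library, but the log2 values of 0.89, 0.49 and 0.86 stayed under the cutoff. *TOM40* (YMR203W) stood at 0.64, 0.55 and 0.33, and its UT IP libraries held 263, 201 and 222 counts. *TOM22* (YNL131W), the central receptor, was enriched with Ccr4 at 1.10 and with Dhh1 at 1.09, but with TMM its Ccr4 value was -0.03.

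Of the 4 mRNAs of the SAM complex, 3 were enriched with Ccr4, 1 with Dhh1 and 1 with Puf5. Among all RNAs tested the shares were 57.8%, 37.4% and 17.6%, and no complex was tested as a group. *MDM10* (YAL010C), a β-barrel protein shared with the tether between mitochondria and the endoplasmic reticulum, had 66, 58 and 55 counts with Ccr4, 31, 31 and 29 with Dhh1, 20, 10 and 32 with Puf5 and 16, 15 and 12 in the mock UT IP. The Ccr4 libraries lay above those of every other group and the Dhh1 libraries above those of the UT IP, while Puf5 and UT IP libraries overlapped. Its log2 was 2.02 ± 0.37 for Ccr4 (FDR = 2.2e-05), 1.10 ± 0.38 for Dhh1 (FDR = 0.010, not called) and 0.50 ± 0.40 for Puf5. At the other end was *SAM37* (YMR060C), a subunit that releases finished β-barrels, with 17, 20 and 23 counts with Ccr4 against 23, 7 and 16 in the mock UT IP. These libraries overlapped and its log2 of 0.41 ± 0.44 was the lowest of the import mRNAs for Ccr4. In the Dhh1 IP it had 26, 40 and 20 counts and in the Puf5 IP 31, 26 and 24, with log2 values of 0.94 and 0.80 that were not called. *SAM50*, the channel of the complex, was enriched with Ccr4 at 1.43 and with Dhh1 at 1.12, and *SAM35*, its partner, with Ccr4 at 1.15 and with Puf5 at 1.14.

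Carrier import in the inner membrane showed the highest and the least certain value for Ccr4. *TIM54* (YJL054W), a subunit of the TIM22 complex, had 63, 20 and 5 counts with Ccr4, 20, 12 and 17 with Dhh1, 28, 5 and 22 with Puf5 and 4, 8 and 5 in the mock UT IP. A single Ccr4 library held most of its counts and another lay within the UT IP range. Its log2 of 2.20 ± 0.68 was called for Ccr4 (FDR = 0.0026), and the call was lost without the first Ccr4 library (1.07, FDR = 0.13) and without the first UT IP library (2.01, FDR = 0.015). In a fit of the Ccr4 and UT IPs alone *TIM54* did not pass the filter on low counts. Its Puf5 value of 1.53 ± 0.70 was the second highest for that factor and was not called (FDR = 0.055). *TIM22* (YDL217C), the channel, had 85, 91 and 82 counts with Ccr4, 100, 67 and 62 with Dhh1, 49, 40 and 53 with Puf5 and 29, 24 and 31 in the mock UT IP. All libraries of the tagged strains were above all UT IP libraries, and the log2 values were 1.63 ± 0.27, 1.48 ± 0.27 and 0.74 ± 0.28. *TIM18* (YOR297C), which helps bring Tim54 into the complex, had 35, 13 and 19 counts with Puf5 against 27, 12 and 22 in the mock UT IP, a log2 of 0.14 ± 0.42 on groups that overlapped. In the Ccr4 IP it had 75, 40 and 36 counts, with a log2 of 1.31 that was called. Of the small TIM chaperones, which escort hydrophobic proteins between the membranes, *TIM13* was enriched with Ccr4 at 1.65 and with Dhh1 at 1.3, and *TIM12* with none.

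In the TIM23 complex 3 of 4 mRNAs were enriched with Ccr4, 2 with Dhh1 and 2 with Puf5. Of all RNAs tested, 57.8%, 37.4% and 17.6% were. *TIM21* (YGR033C), which links TIM23 to TOM and to the respiratory chain, had 79, 92 and 92 counts with Ccr4, 86, 109 and 100 with Dhh1, 89, 88 and 76 with Puf5 and 49, 37 and 15 in the mock UT IP. The 9 libraries of the tagged strains differed little from each other, while the UT IP libraries were lower and ran over a wide range. Its log2 was 1.40 ± 0.30, 1.60 ± 0.30 and 1.31 ± 0.30. *TIM17*, part of the channel, stood at 1.63, 1.38 and 1.27 and was enriched with all 3 factors. *TIM23*, the channel subunit itself, was enriched only with Ccr4, at 1.33 (0.73 and 0.88 for Dhh1 and Puf5), and *TIM50*, the presequence receptor, with none, at 0.70, 0.69 and 0.30.

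The import motor held the highest value for Dhh1 and for Puf5 and some of the lowest. *PAM18* (YLR008C), the J-protein that stimulates the motor's Hsp70, had 70, 99 and 85 counts with Ccr4, 108, 66 and 86 with Dhh1, 118, 77 and 102 with Puf5, 29, 19 and 28 in the mock UT IP and 49 and 38 in the UT input. Each library of a tagged strain was above each UT IP and UT input library. The log2 was 1.75 ± 0.28 for Ccr4 (FDR = 5.4e-06), 1.81 ± 0.28 for Dhh1 (FDR = 1.5e-05) and 1.93 ± 0.28 for Puf5 (FDR = 4.2e-06). Of all mRNAs tested, 77.2% lay below it with Ccr4, 94.1% with Dhh1 and 96.0% with Puf5. Since *PAM18* was singled out as the highest import mRNA for Dhh1 and Puf5, high ranks there follow from that choice. With TMM the values were 0.65 (FDR = 0.050), 0.90 (FDR = 0.022) and 1.36 (FDR = 0.00046), and against the UT input the Puf5 value was 1.04 (FDR = 0.019, not called). The direct comparisons of *PAM18* between factors were not called, at 0.18 ± 0.25 for Puf5 against Ccr4 and 0.13 ± 0.25 for Puf5 against Dhh1. *PAM16*, its partner J-like protein, was enriched with Ccr4 at 1.75 and with Dhh1 at 1.41.

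*SSC1* (YJR045C), the matrix Hsp70 that drives the motor, was the most abundant of the import mRNAs and among the least enriched. It had 2397, 1782 and 1545 counts with Ccr4, 2036, 1447 and 1371 with Dhh1, 1665, 1354 and 1770 with Puf5, 1472, 1271 and 1207 in the mock UT IP and 1523 and 1449 in the UT input. In CPM each IP library lay above the UT IP libraries, by a log2 of 0.57 ± 0.15, 0.36 ± 0.15 and 0.28 ± 0.15. Its direction depends on the scaling: with TMM it was -0.58 for Ccr4 (FDR = 0.00034), -0.57 for Dhh1 (FDR = 0.0015) and -0.31 for Puf5 (FDR = 0.050), that is, below the bulk of RNAs. *SSC1* took 44.5% to 45.8% of all counts on import mRNAs in the UT IP and 34.4% to 37.8% in the tagged strains' IPs. *TIM44* (YIL022W), which tethers Ssc1 to the channel, had 225, 174 and 216 counts with Ccr4 against 82, 85 and 95 in the mock UT IP and was called with Ccr4 alone, at 1.26 ± 0.20. *MGE1*, the nucleotide exchange factor of Ssc1, and *PAM17* were not called with any factor.

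**Figure D2:**
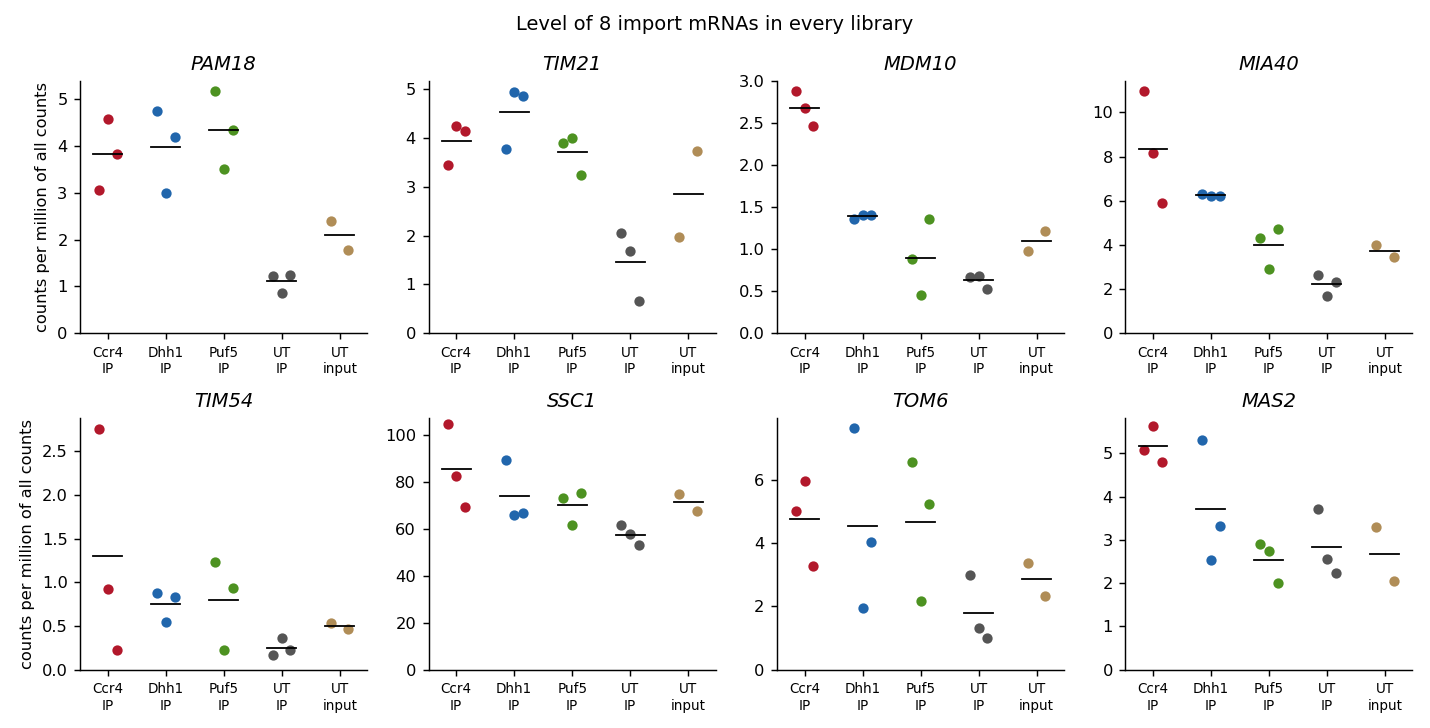
Level of 8 import mRNAs in each of the 14 libraries, in CPM of all counts (y axes from 0, of different range), with a dot for each library and a line at the group mean. *PAM18* and *TIM21* were higher in every tagged-strain library than in every UT IP library, and *MDM10* was highest in the Ccr4 IP. *TIM54* rested mostly on a single library in the Ccr4 IP, and *SSC1* had by far the highest level.

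The oxidative pathway of the intermembrane space gave both a high and a low value. *MIA40* (YKL195W), the oxidoreductase that traps cysteine-rich proteins, had 251, 177 and 131 counts with Ccr4, 144, 137 and 128 with Dhh1, 98, 64 and 111 with Puf5 and 63, 37 and 53 in the mock UT IP. Every tagged-strain library was above every UT IP library, and the log2 was 1.89 ± 0.25 (Ccr4, FDR = 4.6e-07), 1.48 ± 0.25 (Dhh1, FDR = 4.1e-05) and 0.83 ± 0.26 (Puf5, not called). *HOT13* (YKL084W), a zinc-binding helper of Mia40, had 40, 31 and 28 counts with Ccr4, 18, 22 and 9 with Dhh1, 31, 25 and 25 with Puf5 and 19, 15 and 12 in the mock UT IP. The Dhh1 and UT IP libraries overlapped, and its Dhh1 log2 of 0.15 ± 0.42 was the lowest of the import mRNAs for that factor. A subunit of the processing peptidase had the lowest value for Puf5. *MAS1* (YLR163C) was called with Ccr4 at 1.19 and stood at 0.71 with Dhh1 and 0.38 with Puf5. *MAS2* (YHR024C) had 116, 122 and 107 counts with Ccr4, 121, 56 and 68 with Dhh1, 66, 60 and 47 with Puf5 and 89, 56 and 51 in the mock UT IP, and its Puf5 value of -0.16 ± 0.28 was the lowest for that factor.

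Direct comparison of the IPs asked where the factors differ, without the UT IP. Between the Ccr4 and Dhh1 IPs none of 29 import mRNAs differed at an FDR under 1% (4 at an unadjusted p under 0.05, and 0 with DESeq2), against 5.89% of all RNAs. Between the Puf5 and Dhh1 IPs none differed either (6 at an unadjusted p under 0.05, and 0 with DESeq2), against 3.92%. In the Puf5 IP 6 import mRNAs were lower than in the Ccr4 IP, or 20.7%, against 23.7% of all RNAs, and none was higher. Few RNAs were higher at all: of 4921 tested, 1297 differed in either direction and 1166 of these were lower with Puf5. The median difference of the import mRNAs was -0.45, and that of all mRNAs -0.56. The 6 were *MDM10* at -1.52 ± 0.36 (FDR = 0.0011), *MIA40* at -1.06 ± 0.24 (FDR = 0.0010), *MAS2* at -1.01 ± 0.27 (FDR = 0.0042), *TIM22* at -0.88 ± 0.26 (FDR = 0.0076), *TIM44* at -0.87 ± 0.20 (FDR = 0.0012) and *MAS1* at -0.81 ± 0.24 (FDR = 0.0092).

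Both subunits of the processing peptidase were thus called lower with Puf5 than with Ccr4, and none of the 6 TOM mRNAs was called. A difference between complexes was not tested, and 23.7% of all RNAs were lower in this comparison. *MAS1* had 131, 131 and 145 counts with Ccr4 and 89, 61 and 87 with Puf5. *TIM44* had 122, 122 and 98 counts with Puf5, less than in any Ccr4 library. For each of the 6 mRNAs all Puf5 libraries were below all Ccr4 libraries in CPM. These mRNAs were called on the same libraries, so this adds no further evidence, and the share over all RNAs was not computed. The TOM mRNAs lay between -0.62 and 0.26. Without the second Puf5 library the count fell from 6 to 1, and leaving out the third Puf5 library gave 2. It was 0 with TMM, where *MDM10* kept the lowest value at -1.0 (FDR = 0.024).

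**Figure D3:**
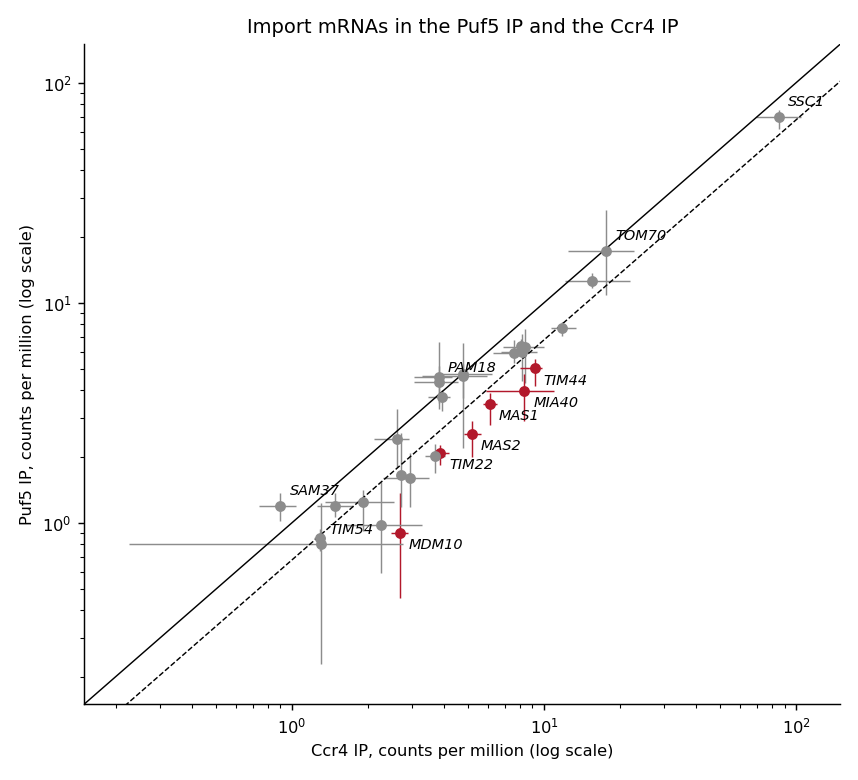
Mean CPM of 29 import mRNAs in the Ccr4 IP (x axis) and the Puf5 IP (y axis), both log scales, with bars from the lowest to the highest of 3 libraries. The solid line marks equal levels and the dashed line the median difference of all mRNAs (-0.56 on the log2 scale), and the 6 mRNAs called lower with Puf5 (red) lie below the solid line.

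Each RNA was also split by length into 3 segments, and for each mRNA the enrichment of its 3′ segment was set against that of its 5′ segment. Of 28 import mRNAs with at least 5 counts on average in each segment, *SSC1* was more enriched at its 3′ end with Ccr4 and with Dhh1, and *SSC1*, *TOM40*, *TOM70*, *TOM20* and *PAM16* with Puf5, at an FDR under 5%. The background was 5.12% of mRNAs for Ccr4, 1.78% for Dhh1 and 10.9% for Puf5. No import mRNA was called the other way, and the share of all mRNAs called that way was not computed. *TIM54* was left out of this comparison for low counts. Its 3′ segment held 4, 0 and 0 counts with Ccr4, 0 in each Dhh1 and Puf5 library, 0, 0 and 2 in the UT IP and 1 and 0 in the UT input. The median difference between the ends was 0.38, 0.45 and 0.96 for the import mRNAs and 0.40, 0.37 and 0.61 for all mRNAs. With the UT input as the reference these medians fell to 0.03, 0.10 and 0.36 for the import mRNAs. For all mRNAs they then were 0.14, 0.09 and 0.32.

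*SSC1* was the mRNA with the most counts behind this comparison. Its 3′ segment took 43.6%, 41.0% and 41.0% of its counts with Ccr4, 39.0%, 35.04% and 38.1% with Dhh1, 50.8%, 43.4% and 52.3% with Puf5, 19.8%, 24.4% and 21.0% in the UT IP and 30.7% and 30.2% in the UT input. The shares of the tagged strains lay above both kinds of control, and the UT IP lay below the UT input. The difference between the ends was 1.19 ± 0.20 for Ccr4 (FDR = 0.00085), 0.94 ± 0.20 for Dhh1 (FDR = 0.018) and 1.69 ± 0.20 for Puf5 (FDR = 2.6e-06). Within the 3′ segment *SSC1* was enriched over the UT IP by 1.53, 1.15 and 1.46, and within the 5′ segment by 0.33, 0.20 and -0.23. With TMM within each segment the calls for Ccr4 (0.78, FDR = 0.039) and Puf5 (1.09, FDR = 0.00090) stayed and that for Dhh1 (0.57, FDR = 0.22) was lost. Against the UT input the call stayed for Puf5 alone, at 1.05 (FDR = 0.0052). The Dhh1 call was also lost without any single Dhh1 library and without the first UT IP library.

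The mRNAs of the TOM complex that shifted with Puf5 did so on fewer counts. *TOM40* had 105, 108 and 133 counts with Puf5 in its 3′ segment against 62, 50 and 33 in the mock, with 90, 85 and 89 against 98, 85 and 98 in the 5′ segment. The groups overlapped in the 5′ segment of *TOM40* and not in its 3′ segment, and the difference between ends was 1.34 ± 0.35 (FDR = 0.0093). It was the call besides *SSC1* that stayed against the UT input, at 1.32 (FDR = 0.046), and it was lost without the third UT IP library. *TOM70* had 155, 119 and 475 counts with Puf5 in its 3′ segment against 89, 86 and 82 in the mock UT IP. The third Puf5 library alone gave most of this, with 76.2% of its *TOM70* counts in the 3′ segment where the others had 47.7% and 49.8%, and without it the call for *TOM70* (1.33 ± 0.34, FDR = 0.0097) was lost. *TOM20*, the presequence receptor, had 93, 32 and 37 counts there against 18, 9 and 9, for a difference of 1.79 ± 0.62 (FDR = 0.049).

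*PAM16* (YJL104W) had the largest estimate of the 5, 2.36 ± 0.89 (FDR = 0.049), on the fewest counts, with 34, 17 and 17 for Puf5 in its 3′ segment against 2, 1 and 6 in the mock UT IP. The UT input had 9 and 5 counts there, and against it the difference was 0.24. *TOM20* and *PAM16* passed by a narrow margin and each was lost on leaving out any of several libraries. Without the third Puf5 library 2 calls were left, *SSC1* and *TOM40*. Pooled over the import mRNAs, the 3′ segment held 45.7% ± 4.10 (SD, n = 3) of the counts with Puf5, 40.1% ± 2.60 with Ccr4, 36.0% ± 1.17 with Dhh1 and 26.3% ± 0.564 in the UT IP. In the UT input it held 33.2% ± 0.206 (SD, n = 2), above the UT IP. Without *SSC1* the Puf5 and UT IP shares were 43.9% ± 3.69 and 30.0% ± 2.23, where all mRNAs had 40.4% ± 2.88 and 29.8% ± 0.838 (SD, n = 3). The Ccr4 and Dhh1 shares without *SSC1* were 39.1% ± 3.19 and 35.3% ± 1.58 (SD, n = 3). That of the UT input was 35.3% ± 0.328 (SD, n = 2), the same as with Dhh1.

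**Figure D4:**
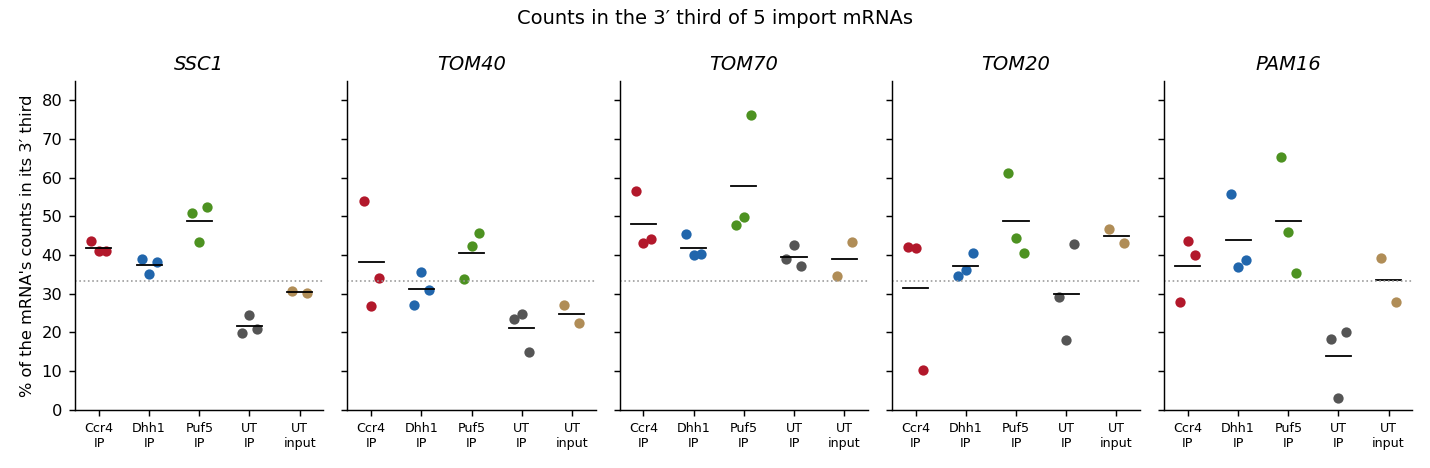
Percent of the counts of *SSC1*, *TOM40*, *TOM70*, *TOM20* and *PAM16* that fell in the 3′ segment (y axis) in each library, with lines at group means and a dotted line at an even split. *SSC1* rose from 19.8% to 24.4% in the UT IP libraries to 43.4% to 52.3% in those of the Puf5 IP without overlap, while a single Puf5 library reached 76.2% for *TOM70*.

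No import mRNA was called between the mock precipitation and its input. None of 29 differed between the UT IP and the UT input at a log2 beyond 1 and an FDR under 1% (7 at an unadjusted p under 0.05, and 0 with DESeq2), against 2.76% of all RNAs, and their median was -0.49 where that of all mRNAs was -0.40. The highest was *HOT13* at 0.15 ± 0.49, with 10 and 15 counts in the UT input. The lowest was *TIM21* at -0.94 ± 0.35 (FDR = 0.070), with 40 and 80 counts in the UT input, so the inputs spread widely and overlapped the UT IP. With the UT input as the reference, 5 import mRNAs were enriched with Ccr4 (*MAS1*, *MIA40*, *PAM16*, *TIM17* and *TIM22*), 1 with Dhh1 (*PAM16*) and 0 with Puf5. The shares of all RNAs enriched against the UT input were not computed. The median log2 of the import mRNAs was then 0.75, 0.48 and 0.34, and that of all mRNAs 0.79, 0.53 and 0.19.

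In the UT input the import mRNAs ran from 0.350 CPM per kilobase of coding length for *TIM54* to 36.2 for *SSC1* (means of 2 libraries, *ERV1* left out). *SSC1* lay above all others, and the next were *TOM22* at 15.6 and *TOM6* at 15.4, whose 2 libraries each ran from 12.5 to 18.7 and from 12.6 to 18.2 and overlapped. *TIM54* and *MDM10*, at 0.741, were lowest, and their libraries did not overlap. Almost no counts of *TIM54* fell in its 3′ segment, so its level over the full coding length rests on the other segments. Counts include the untranslated ends, so levels of short genes such as *TOM6* are overstated on this scale. Across the 29 mRNAs, which share the same libraries, the log2 level in the UT input (0.5 counts added) went against enrichment, with Pearson r at -0.48, -0.34 and -0.23 in the Ccr4, Dhh1 and Puf5 IPs (Spearman -0.40, -0.32 and -0.16). Across all mRNAs the Pearson r was -0.44, -0.32 and -0.18.

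Other genes of import and of protein folding and processing inside mitochondria were enriched mostly with Ccr4, as were RNAs as a whole. From a list of 21 such genes 19 were tested, and 15 were enriched with Ccr4, 4 with Dhh1 and 0 with Puf5 (median log2 1.46, 0.81 and 0.39), against 57.8%, 37.4% and 17.6% of all RNAs (median of all mRNAs 1.24, 0.94 and 0.61). In the Puf5 IP 9 of 19 were lower than in the Ccr4 IP, against 23.7% of all RNAs, and 2 were higher with Ccr4 than with Dhh1, where 5.89% of all RNAs differed in either direction. *HSP78*, a chaperone of the matrix that dissolves aggregates, was enriched with Ccr4 at 1.81 ± 0.25 and stood at 0.46 with Dhh1 and 0.02 with Puf5. *MDJ1*, the J-protein that works with Ssc1 in folding, was at 1.71 ± 0.23, 0.96 and 0.31, and *HSP60*, the abundant chaperonin, at 0.18, 0.12 and -0.14. Whether this list differs from the import machinery was not tested.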

How the data were processed

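RNA-seq libraries of 12 immunoprecipitates and 2 inputs were analysed. The authors trimmed SOLiD reads, mapped them to an earlier build of the *S. cerevisiae* genome with SHRiMP2, dropped low-scoring reads and deposited raw counts per RNA, between published transcript ends, and per segment (3 equal parts by length, which summed to the whole count for every RNA). The use of strand in this counting is not given in the sources used here. No annotated gene overlapped the coding span of an import gene. The authors also deposited their own log2 enrichments, which were not used. The type of each RNA came from the authors' table. Symbols came from RefSeq (4791 of 4792 mRNAs matched), by locus tag. RefSeq, whose build differs from that of the files, also gave the coding lengths and the check for overlapping genes. No coordinates are printed, and no sequences were used.

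The main tests were F tests from edgeR's quasi-likelihood fit (version 4.0.16, with R 4.3.3). Each library size was its total over all rows, no TMM factors were applied, the 12 IP libraries entered 1 fit, RNAs passed edgeR's default filter and the prior count was 1. The fit for UT IP against UT input held all 14 libraries. Ends were compared by the interaction of group and segment, with libraries as blocks, for mRNAs that averaged at least 5 counts per segment. FDRs follow Benjamini and Hochberg and were adjusted over every RNA in the comparison. Standard errors are the size of the log2 fitted without a prior count, divided by the square root of F. They can thus depart from the printed log2 over that root where counts are low. The steps were tested on simulated data. Python 3.11.15 with pandas 2.3.3, numpy 2.4.6 and matplotlib 3.10.9 made the summaries and plots.

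Replicates of a group differed by 2.39 to 11.2 times the counting noise (chi-square per degree of freedom), so none was counted as a repeat of another. The members, the list of other import genes and the tests were chosen with earlier results of these data known. Named in full were, for each factor, the 3 highest and 2 lowest import mRNAs, those called in a direct comparison or between ends, and the highest and lowest for UT IP against UT input. *TIM17*, *HSP78*, *MDJ1*, *HSP60* and the other members given by log2 alone were picked after their values were seen. Alternatives covered scaling, filters, cutoffs, the reference, the test, a replicate block and leaving out each library.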

Additional observations from a re-analysis of the deposited data

Results flagged for a closer look

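For 6 import mRNAs the direct test between IPs found a difference, each lower in the Puf5 IP than in the Ccr4 IP: *MDM10* (log2 -1.52), *TIM22* (-0.88), *TIM44* (-0.87), *MIA40* (-1.06), *MAS1* (-0.81) and *MAS2* (-1.01). Of all RNAs tested, 23.7% were lower in this comparison, and none of these 6 calls was made in every fit that left out 1 library. Groups held at most 3 libraries, so no group was tested for a single outlying library.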

How the results depend on the processing

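Scaling moved most calls. Shares of all RNAs called were computed for the main settings alone, so the counts under the alternatives below have no background beside them. The import mRNAs enriched with Ccr4, Dhh1 and Puf5 (18, 11 and 7) numbered 0, 0 and 1 with TMM factors and with DESeq2 1.42.0, 3, 1 and 1 with totals over mRNAs or without rRNA, 5, 1 and 0 against the UT input, and 2, 0 and 0 at a log2 over 2. Pairs of replicates tested with a Poisson exact test gave 20, 15 and 10. No filter, a mean of at least 20 counts, a prior count of 5 and a fit of only the groups compared gave 17 to 18, 11 and 6 to 7. All 29 values for Ccr4 and for Dhh1 were above 0 on the scale of all reads, and 17 and 16 were with TMM and 16 and 15 with DESeq2 (Puf5: 28, 17 and 16). On the scale of all reads nearly all mRNAs were above 0: 4467, 4577 and 4226 of 4642 with Ccr4, Dhh1 and Puf5. Among the values that turned below 0, those enriched at first or below 0 at an FDR under 1% were *TOM22* for Ccr4 (-0.028 with TMM, -0.078 with DESeq2), *SAM35* for Ccr4 (-0.036 with DESeq2), *TOM40* for Ccr4 (-0.57 with DESeq2) and *SSC1* for Ccr4 (-0.58 with TMM, -0.63 with DESeq2) and Dhh1 (-0.57 with TMM, -0.58 with DESeq2). The 6 mRNAs lower in the Puf5 IP than in the Ccr4 IP numbered 0 with TMM, DESeq2 or totals without rRNA, 2 with totals over mRNAs and 3 when the log2 also had to be beyond 1. Leaving out a library gave 15 to 21 enriched with Ccr4, 6 to 12 with Dhh1 (6 without the first Dhh1 library), 2 to 8 with Puf5, and 1 to 7 for Puf5 against Ccr4. Between ends it gave 1 to 2 calls for Ccr4, 0 to 1 for Dhh1 and 2 to 7 for Puf5 (1, 1 and 5 with all libraries). Those calls were 1, 0 and 1 with TMM within segments, 0, 0 and 2 against the UT input, 2, 1 and 5 when each segment averaged 10 counts or more, and 1, 0 and 3 at an FDR under 1%. The counts of 0 for Ccr4 against Dhh1, Puf5 against Dhh1 and UT IP against UT input stayed 0 under every alternative run. Where no cause is named, the cause was not tested. Libraries with the same replicate number did not vary together (r from -0.05 to 0.03 over 18 same-numbered pairs). The labels do not say whether they were processed together, which this check cannot decide. A replicate block gave 20, 11 and 7 enriched, 6 lower with Puf5 and 1, 1 and 4 between ends. The planned search for Puf3 motifs was not run, since no sequence of the files' build was at hand. Between 29 and 46.5 counts for the median import mRNA in a UT IP library limit all of these values.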
